A study of Mus musculus with 6 samples.

Results

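Astrocytes are the glial cells that wrap brain microvessels with flattened processes, the endfeet. The genes described here are 36 genes of astrocyte identity, endfoot channels, transport and metabolism, given as a list of symbols and matched to the Ensembl identifiers of the deposited files through the NCBIM37 annotation. All 36 were found among the 33460 genes in the files. They were grouped by role into 5 channels and membrane proteins of the endfoot, 8 transporters, 7 metabolic enzymes, 4 receptors and surface proteins, 4 transcription factors and early glial genes, 4 secreted proteins and 4 small intracellular proteins.

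RNA-seq was available for 6 samples from brains of NG2-DsRed/Pdgfrb-eGFP double transgenic mice (Pdgfrb-eGFP line Tg(Pdgfrb-eGFP)JN169Gsat/Mmucd) at postnatal day 6. The 3 mural samples are cells positive for both reporters, sorted by FACS. The 3 fragments samples are pieces of microvessel collected with beads carrying an antibody to CD31, an endothelial surface protein, and hold endothelial and mural cells together. Mice of both groups carry both reporters and no other allele or treatment is given. The reporters mark cells in which regulatory sequence of Pdgfrb or of Cspg4, the gene of NG2, is active, and outside vessels NG2 is known from oligodendrocyte progenitors. Per the methods, the brains of 3 mice were divided and one side went to each preparation. Nothing states which mural and which fragments sample share a brain, so p-values measure the spread between these samples.

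An endfoot faces the vessel wall with water channels and potassium channels, which are anchored to the basement membrane, while the rest of the astrocyte takes up glutamate, GABA and glycine at synapses. Astrocytes convert glutamate to glutamine, secrete lipoprotein particles and activate thyroid hormone. In the first postnatal week the astrocytes of the mouse brain are still being formed from radial glia and many genes of the mature cell are rising. Neither preparation was designed to hold astrocytes.

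Values are FPKM, fragments scaled to transcript length and to the size of the library, as the authors deposited them. The samples were not equally deep. The value of 1 fragment was set on genes with 1 transcript and applied to all protein-coding genes at the length of their longest transcript. This gave approximately 5.43 to 6.02 M fragments in the fragments samples. Mural replicates 1, 2 and 3 came to approximately 2.34, 1.05 and 1.07 M. On a transcript of 2 kb, 1 fragment was worth 0.118 to 0.130 FPKM in the fragments samples and 0.317, 0.737 and 0.696 FPKM in mural replicates 1, 2 and 3. Of 12 mural markers, 12 were called higher in mural samples, with sums of 4507 to 5678 FPKM against 415 to 649 in fragments. They include Pdgfrb, whose reporter was used for the sort. Mural replicate 3 stood apart from the other 2 in the astrocyte genes, so results that rest on it are given with and without it.

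The promoters of a few members are shown first, as a description of sequence. Promoter windows from 250 bases before to 50 bases after the start of transcription were taken from RefSeq (GRCm38.p6), which held 40 windows for 31 of the 36 members. They were searched on both strands for the letters TTGGC, which NFI factors such as Nfia bind as one side of a palindrome, for the letters TGGGAA, the core of RBPJ, the DNA-binding partner of Notch, and for the letters ACAAAG, a core bound by SOX factors. Kcnj10, Hepacam and Hes5 are printed as examples that hold at least 1 NFI motif and 1 SOX core. Capitals mark the matches, also where the match is on the other strand and reads as the reverse complement. The searched letters do not overlap one another in these windows.
Kcnj10, plus strand, chr1:172340960-172341259: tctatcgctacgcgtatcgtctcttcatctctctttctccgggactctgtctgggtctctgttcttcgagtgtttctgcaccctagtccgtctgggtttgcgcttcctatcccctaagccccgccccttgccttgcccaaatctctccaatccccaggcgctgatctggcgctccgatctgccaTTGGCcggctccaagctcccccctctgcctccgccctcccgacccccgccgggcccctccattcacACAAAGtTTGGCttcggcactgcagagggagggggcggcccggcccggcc
Hepacam, plus strand, chr9:37367356-37367655: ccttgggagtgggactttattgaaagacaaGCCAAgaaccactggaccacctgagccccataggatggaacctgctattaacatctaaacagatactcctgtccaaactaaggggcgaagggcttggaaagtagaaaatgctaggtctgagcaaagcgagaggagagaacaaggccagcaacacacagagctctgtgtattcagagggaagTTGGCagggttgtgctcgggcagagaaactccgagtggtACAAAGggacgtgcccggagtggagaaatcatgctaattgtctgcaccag
Hes5, plus strand, chr4:154960673-154960972: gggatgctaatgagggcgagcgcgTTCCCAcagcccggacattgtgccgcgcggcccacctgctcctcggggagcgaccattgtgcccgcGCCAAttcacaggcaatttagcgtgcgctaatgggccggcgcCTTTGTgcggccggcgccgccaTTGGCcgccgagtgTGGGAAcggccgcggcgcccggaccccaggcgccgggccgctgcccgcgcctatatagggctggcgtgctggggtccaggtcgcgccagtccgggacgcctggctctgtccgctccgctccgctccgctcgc

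The NFI motif was in 24 of 40 member windows (60%) and in 46.7% of all 32851 windows in the table. The RBPJ core was in 12 of 40 (30%) against 25.6%, and the SOX core in 9 of 40 (22.5%) against 18.7%. The Kcnj10 and Hepacam windows held 2 NFI motifs and 1 SOX core each, and the Hes5 window held 2 NFI motifs, 2 RBPJ cores and 1 SOX core. These are matches of letters and no binding was measured.

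To ask whether astrocyte transcripts were depleted from the sorted mural cells, log2(FPKM + 1) was compared between the groups with limma over the 14801 genes that reached an FPKM of 1 in 3 or more samples. A gene was called higher in mural where the adjusted p was under 0.05 and mural over fragments mean FPKM was above 2, and lower where that ratio was under 0.5. Of the 36 members, 35 were tested and Grin2c was not. Atp1b2 was called higher and Apoe was called lower, and 33 members were not called. Of all genes tested, 6.43% were called higher and 10.1% lower. In a fit blocked on replicate number, these 2 members were again the ones called, against 6.08% and 9.08% of all genes. Quantile normalization shifted the median log2 fold change of all genes by 0.13 and turned the balance of calls, to 8.19% of all genes higher and 7.3% lower, with 1 member higher and 1 lower. The median log2 fold change of the members was 0.00, beside -0.12 for all genes tested, and their median standard error was 0.41, beside 0.26. Mural replicate 3 sets this median, which was -0.62 without it. The summed FPKM of the members was 83.4%, 77.8% and 146% of the fragments mean in mural replicates 1, 2 and 3. Their median ratio of mean FPKM was 1.26, beside 0.94 for all genes tested. In such bulk samples, fewer cells of a type and less RNA per cell cannot be told apart.

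**Figure D1:**
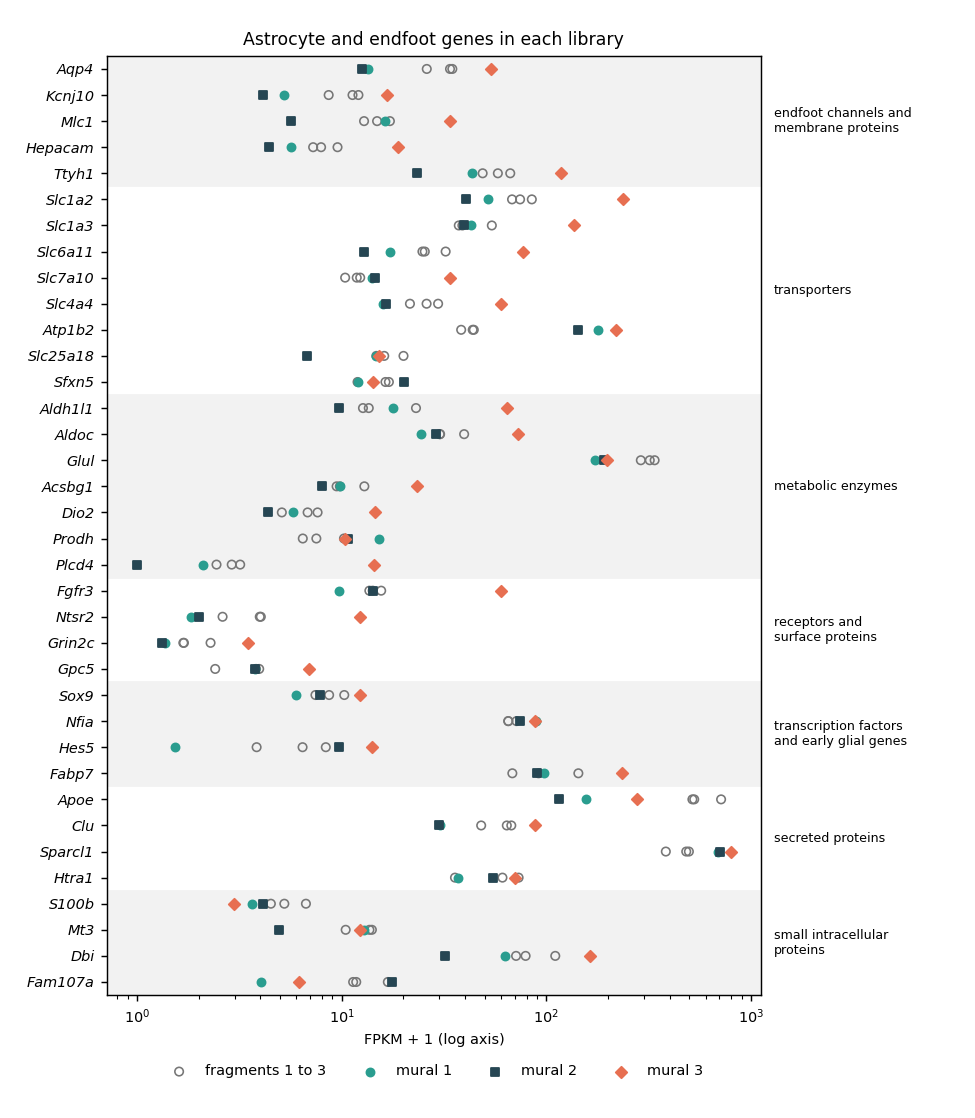
FPKM of the members in each of the 6 samples on a log axis, with genes grouped by role and each point standing for 1 sample. Mural replicate 3 is the highest of the mural samples for 29 of the 35 members tested.

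Atp1b2 encodes the beta 2 subunit of the sodium pump, which is known both from astrocytes and from pericytes. Its FPKM was 43.2, 42.7 and 37.3 in fragments and 177, 141 and 219 in mural replicates 1, 2 and 3. Every mural sample lay above every fragments sample, the ratio of means was 4.36, and the log2 fold change was 2.08 (SE 0.17, adjusted p = 0.00027, limma). The gene (ENSMUSG00000041329) lies on chr11:69413238-69419444 of NCBIM37, minus strand, with no other annotated gene overlapping it. Without mural replicate 3 the ratio was 3.88 (adjusted p = 0.00076).

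Apoe, the lipid carrier that astrocytes and microglia secrete, went the other way. It measured 526, 712 and 516 FPKM in fragments and 155, 114 and 276 FPKM in mural. The groups did not overlap, the ratio was 0.311 and the log2 fold change was -1.76 (SE 0.31, adjusted p = 0.0069). Apoe (ENSMUSG00000002985) lies on chr7:20281458-20284515, minus strand. Microglia markers moved with it: 8 of 8 were called lower, and their summed level was 1384 to 1636 FPKM in fragments and 99.4 to 156 FPKM in mural. The part of microglia in the lower Apoe was not tested.

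Glul and Sparcl1 passed the adjusted p and not the 2-fold limit. Glul, glutamine synthetase, measured 319, 288 and 337 FPKM in fragments and 171, 191 and 197 FPKM in mural, a ratio of 0.593 (log2 fold change -0.75, SE 0.11, adjusted p = 0.0035). Its 3 mural samples lay close together and all below the fragments. A protein-coding gene model on the same strand, A930039A15Rik, overlaps Glul, and reads of both cannot be told apart. Sparcl1, a secreted matrix protein also called hevin that is known from astrocytes and vessels, measured 481, 496 and 382 FPKM in fragments and 692, 704 and 795 FPKM in mural (ratio 1.61, adjusted p = 0.013). Including these genes, 2 members were past the adjusted p in the higher direction and 2 in the lower, where all genes gave 9.34% and 13%.

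In 5 members every mural sample exceeded every fragments sample (Atp1b2, Nfia, Prodh, Slc7a10 and Sparcl1), and in 3 every mural sample was below (Apoe, Glul and S100b, the last on 6 or fewer fragments in each mural sample). Over all genes tested these shares were 16.5% and 24.5%. Among the 35 members, the count of 5 was close to its share over all genes, and the count of 3 was below its share.

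**Figure D2:**
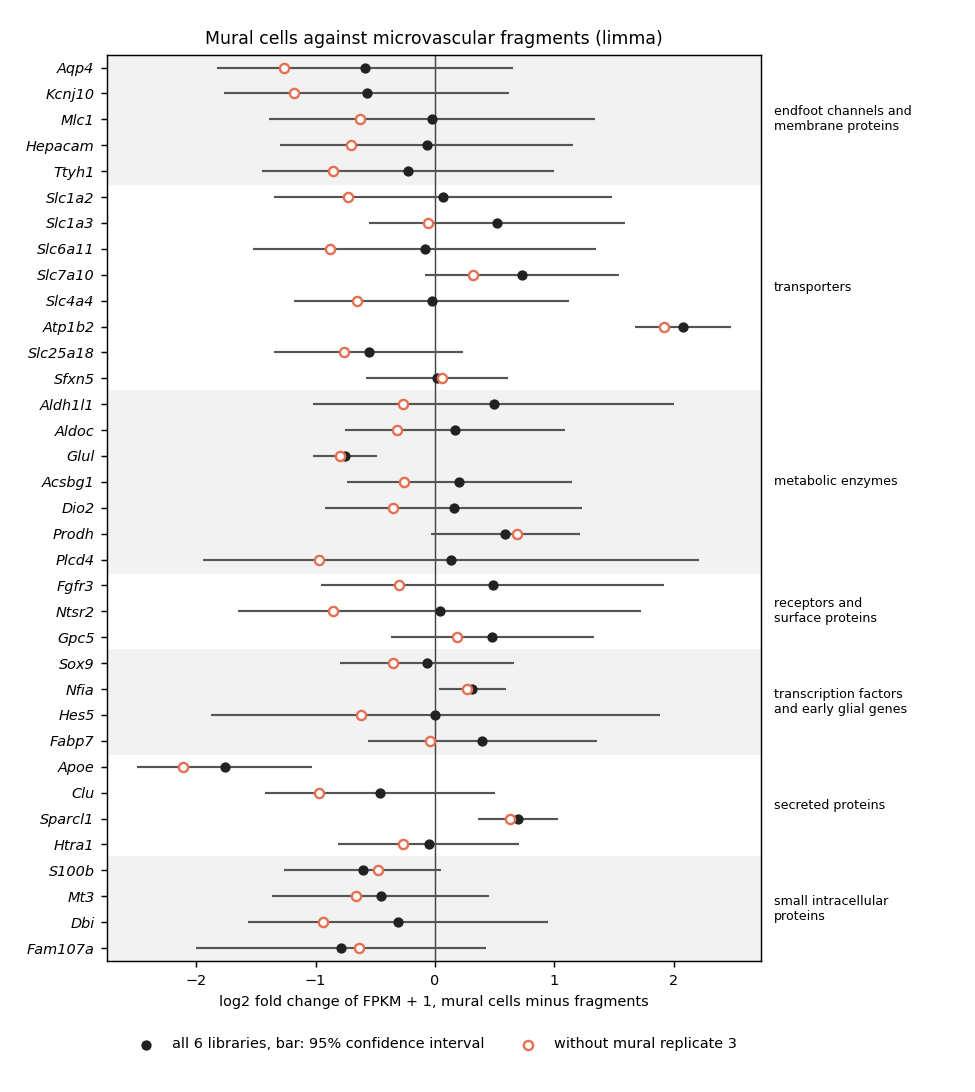
Log2 fold change of mural against fragments for the 35 members tested (filled points with 95% confidence intervals of the limma fit) and the same without mural replicate 3 (open points), genes grouped by role. Most intervals with all samples include 0, and the open points lie lower for the majority of genes.

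The 5 channel and membrane genes of the endfoot were all highest in mural replicate 3 among the mural samples. Aqp4, the water channel of the endfoot, measured 25.0, 33.7 and 32.8 FPKM in fragments and 12.5, 11.6 and 52.6 FPKM in mural replicates 1, 2 and 3. Kcnj10, the inward rectifier Kir4.1 that buffers potassium, measured 7.64, 10.3 and 11.1 FPKM in fragments and 4.22, 3.14 and 15.6 FPKM in mural. For both genes, mural replicates 1 and 2 lay below all fragments samples and mural replicate 3 above all of them. Hepacam, an adhesion protein that carries Mlc1 to astrocyte junctions, measured 6.93, 8.54 and 6.25 FPKM in fragments against 4.69, 3.44 and 17.9 FPKM in mural, the same order. Ttyh1, a chloride channel family protein of glia, measured 56.9, 65.6 and 47.8 FPKM in fragments and 42.2, 22.4 and 117 FPKM in mural. Mlc1, the membrane protein mutated in a leukodystrophy with cysts, differed in mural replicate 1, at 15.3 FPKM against 11.9, 16.2 and 13.9 FPKM in fragments, with 4.68 and 32.9 FPKM in replicates 2 and 3. The sum of the 5 genes was 108 to 134 FPKM in fragments and 78.8, 45.2 and 236 FPKM in mural, and none was called by limma with all samples, with 0 at an unadjusted p under 0.05.

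Among the transporters, the uptake carriers for transmitters were low in mural replicates 1 and 2 or close to the fragments, and high in mural replicate 3. Slc1a2, the glutamate transporter GLT-1, measured 67.0, 83.9 and 73.4 FPKM in fragments and 50.6, 39.3 and 236 FPKM in mural. Slc6a11, the GABA transporter GAT-3, measured 23.8, 31.2 and 24.5 FPKM in fragments and 16.2, 11.8 and 76.1 FPKM in mural. Both had mural replicate 3 about 5 times the mean of the other 2 mural samples (ratios 5.25 and 5.44). Slc4a4, the sodium bicarbonate cotransporter, measured 25.0, 28.6 and 20.6 FPKM in fragments and 15.0, 15.5 and 58.7 FPKM in mural. Slc1a3, the glutamate transporter GLAST, which radial glia also carry, measured 37.9, 53.1 and 36.3 FPKM in fragments and 41.9, 38.4 and 136 FPKM in mural. In contrast to Slc1a2, its mural replicates 1 and 2 lay within the range of the fragments. Slc7a10, a carrier of small neutral amino acids, measured 10.8, 11.3 and 9.40 FPKM in fragments and 13.1, 13.6 and 32.9 FPKM in mural (adjusted p = 0.18). Slc7a10 overlaps Lrp3 on the opposite strand. The mitochondrial carriers were not above the fragments in mural replicate 3. Slc25a18, a glutamate carrier, measured 19.0, 15.1 and 13.8 FPKM in fragments and 13.7, 5.75 and 14.2 FPKM in mural. Its mural replicate 3 lay within the range of the fragments and close to mural replicate 1. Sfxn5, a sideroflexin, measured 10.96 to 16.01 FPKM in fragments and 11.01 to 19.19 FPKM in mural.

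For the metabolic enzymes, the gene most used to define astrocytes, Aldh1l1, a folate enzyme, measured 11.7, 22.1 and 12.6 FPKM in fragments and 16.8, 8.66 and 63.4 FPKM in mural. Aldoc, the glycolytic aldolase of astrocytes, measured 29.1, 38.6 and 29.3 FPKM in fragments and 23.4, 27.9 and 71.9 FPKM in mural. Acsbg1, an acyl-CoA synthetase, and Dio2, which activates thyroid hormone, had the same high sample, at 22.3 and 13.6 FPKM in mural replicate 3 against 7.02 to 8.84 and 3.35 to 4.82 FPKM in the other 2. Plcd4, a phospholipase C, was at 1.45 to 2.19 FPKM in fragments, at 1.09 FPKM in mural replicate 1, listed at 0 in mural replicate 2 and at 13.3 FPKM in mural replicate 3. Prodh, proline dehydrogenase, went otherwise, with 14.2, 9.72 and 9.42 FPKM in mural and 9.26, 5.46 and 6.52 FPKM in fragments, and did not pass the test (adjusted p = 0.16). Plcd4 and Prodh each overlap other genes on the opposite strand.

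Of the receptors and surface proteins, Fgfr3, a receptor for fibroblast growth factors on astrocytes, was close to even in fragments (13.2, 12.7 and 14.6 FPKM) and uneven in mural (8.66, 13.2 and 59.0 FPKM). Ntsr2, a neurotensin receptor, measured 1.62, 2.98 and 3.03 FPKM in fragments and 0.845, 1.00 and 11.3 FPKM in mural. Gpc5, a glypican, measured 1.41 to 2.95 FPKM in fragments and 2.77, 2.78 and 5.92 FPKM in mural. Grin2c, an NMDA receptor subunit, measured 1.29, 0.696 and 0.685 FPKM in fragments and 0.379, 0.329 and 2.49 FPKM in mural, and was too low to be tested. These 4 genes summed to 18.9 to 19.7 FPKM in fragments and to 12.7, 17.3 and 78.7 FPKM in mural replicates 1, 2 and 3. The sum in mural replicate 3 was 5.25 times the mean of the other 2, the largest such ratio among the 7 roles, though not the largest difference in FPKM.

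Nfia and Sox9 were more even over the mural samples than most members. Nfia, which drives the onset of astrocyte formation and is also expressed outside glia, measured 64.2, 64.1 and 70.4 FPKM in fragments and 87.7, 73.2 and 87.2 FPKM in mural, with no overlap and an adjusted p of 0.11. Sox9 measured 7.68, 9.30 and 6.45 FPKM in fragments and 5.01, 6.83 and 11.3 FPKM in mural. Hes5, a Notch target of radial glia, varied within both groups, with 2.84, 5.44 and 7.37 FPKM in fragments and 0.527, 8.73 and 13.02 FPKM in mural. The 0.527 FPKM of mural replicate 1 is close to the 0.317 FPKM that 1 fragment was worth there on 2 kb. Fabp7, a fatty acid binding protein of radial glia and young astrocytes, measured 90.6, 142 and 67.2 FPKM in fragments and 96.9, 88.8 and 232 FPKM in mural.

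The other secreted and small intracellular proteins were mixed. Clu, the chaperone clusterin, measured 63.1, 66.4 and 47.0 FPKM in fragments and 29.3, 29.0 and 86.9 FPKM in mural. Htra1, a secreted protease, overlapped between the groups, at 34.8 to 72.2 FPKM in fragments and 35.9 to 69.6 FPKM in mural. Dbi, which binds acyl-CoA and modulates GABA receptors, measured 70.1, 78.1 and 109 FPKM in fragments and 61.6, 30.8 and 163 FPKM in mural. Clu and Dbi thus followed Aqp4. S100b, a calcium binding protein of astrocytes and oligodendrocyte progenitors, measured 4.25, 5.69 and 3.51 FPKM in fragments and 2.64, 3.14 and 1.98 FPKM in mural, which rest on about 6, 3 and 2 fragments. Mt3, a metallothionein of the brain, measured 9.46 to 13.05 FPKM in fragments and 11.8, 3.96 and 11.3 FPKM in mural, the last 3 from about 7, 1 and 3 fragments. Fam107a measured 10.4 to 15.8 FPKM in fragments and 3.06, 16.5 and 5.16 FPKM in mural. These low counts do not allow the mural samples to be ordered for S100b and Mt3.

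The 3 mural samples were then compared with one another. Mural replicate 3 was the highest of them in 29 of 35 members, a position it held in 31.8% of all genes tested. Mural replicates 1 and 2 were highest in 3 members each, against 32.5% and 33.8% of all genes. By the deposited values, the members not highest in mural replicate 3 were Fam107a, Mt3, Nfia, Prodh, S100b and Sfxn5, of which Mt3 and S100b rest on too few fragments to be ordered. The ratio of mural replicate 3 to the mean of the other 2 exceeded 2 in 23 members and in 9.7% of all genes, and its median was 2.81 for the members and 0.97 for all genes. The ratio was 4.38 for Aqp4, 4.97 for Aldh1l1 and 5.40 for Fgfr3, and it was 1.09 for Glul, 1.14 for Sparcl1 and 1.37 for Atp1b2. Glul, Sparcl1 and Atp1b2 were thus close to even over the mural samples. Just above the 2-fold line lay Apoe (2.05) and Gpc5 (2.13), and just below it Sox9 (1.91). Members with a mean mural FPKM of at least 5 gave 26 of 31 highest in mural replicate 3, and median-ratio scaling of the samples gave 29 of 35.

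**Figure D3:**
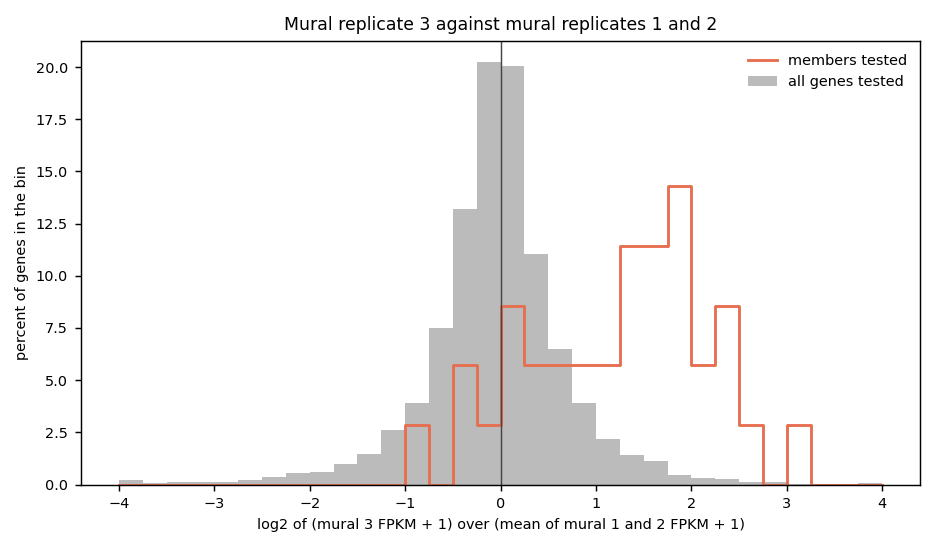
Share of genes (percent, vertical axis) by the log2 ratio of mural replicate 3 to the mean of mural replicates 1 and 2 (FPKM + 1, horizontal axis), for the 35 members tested and for all 14801 genes tested, with values beyond the axis in the end bins. The members are shifted to the right, with a median of 1.38 against -0.03.

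Fragments behind the values could be recovered for the 6 members with 1 transcript, and the gap was larger than counting error for Slc6a11, Hepacam, Dio2 and Sparcl1. Slc6a11 rested on about 110, 34 and 235 fragments in mural replicates 1, 2 and 3, with exact Poisson 95% intervals of 13.3 to 19.5, 8.08 to 16.3 and 66.7 to 86.5 FPKM. Hepacam rested on about 26, 8 and 45 fragments, with intervals of 3.09 to 6.94, 1.47 to 6.69 and 13.1 to 24.1 FPKM. The interval of mural replicate 3 did not touch those of the other 2 in either gene, while the intervals of replicates 1 and 2 overlapped. Such intervals cover counting error only. Dio2 showed the same with about 47, 14 and 61 fragments, and S100b and Mt3 did not. Sparcl1, with a ratio of only 1.14, rests on about 3538, 1545 and 1850 fragments, and its interval in mural replicate 3 (759 to 832 FPKM) also lay above those of the other 2 (669 to 715 and 669 to 739 FPKM). The mural counts of Slc6a11, Hepacam, Dio2 and Sparcl1 were not whole within 0.1 fragment and were rounded. The single samples allow no test between them.

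Mural replicate 3 lay above all 3 fragments samples in 27 of 35 members, against 34.6% of all genes. Mural replicates 1 and 2 were both below all fragments samples in 16 of 35, against 31.1%. Both held at once for 12 members, Aldoc, Aqp4, Clu, Dbi, Hepacam, Kcnj10, Ntsr2, Plcd4, Slc1a2, Slc4a4, Slc6a11 and Ttyh1, against 3.11% of all genes. Of these, Ntsr2 (0.845 and 1.00 FPKM) and Plcd4 (1.09 and 0 FPKM) were near the floor in mural replicates 1 and 2. The coefficient of variation over the mural samples had a median of 68.9% in the members and 26.4% in all genes, and over the fragments samples 18.3% and 15.3%. Within the fragments, replicate 2 was the highest in 24 of 35 members, against 33.1% of all genes, with gaps far smaller than those in mural samples.

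The comparison of the groups changed when mural replicate 3 was left out. That sample was singled out by the values of these same members. The calls and adjusted p without it, here and below, are therefore descriptive and give no separate support. Without mural replicate 3, Atp1b2 was called higher and 4 members were called lower, Aqp4, Kcnj10, Clu and Apoe, against 6.24% and 10.5% of all genes. Aqp4 then had a ratio of 0.393 (log2 fold change -1.27, adjusted p = 0.0057), Kcnj10 of 0.380 (-1.18, adjusted p = 0.024), Clu of 0.495 (-0.97, adjusted p = 0.013) and Apoe of 0.230 (-2.11, adjusted p = 0.0015). Slc1a2 (-0.73, adjusted p = 0.027) and Slc6a11 (-0.88, adjusted p = 0.029) passed the adjusted p and not the 2-fold limit. The median log2 fold change of the members fell from 0.00 to -0.62, while that of all genes stayed at -0.12. In this fit, 7 of 35 members had a log2 fold change above 0, compared with 18 of 35 with all samples. Without mural replicate 2, 2 members were called lower, Apoe and Fam107a (log2 fold change -1.39, adjusted p = 0.022), and 1 higher, against 9.57% and 6.15% of all genes.

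Other astrocyte genes that are not members showed both patterns. Of a list of 42, 39 were tested, 5 were called higher and 1 lower, against 6.43% and 10.1% of all genes, with a median log2 fold change of 0.16. Among the higher genes were Daam2, a formin-like regulator of Wnt signalling (15.3 ± 3.14 FPKM in fragments and 95.9 ± 5.99 in mural, SD, n = 3 each, ratio 6.26, limma adjusted p = 0.00013), Mfge8, a secreted bridging protein for phagocytosis (3.99), Nkain4 (2.10) and Ndrg2 (2.06). In none of these did mural replicate 3 exceed the mean of the other 2 by more than 1.19-fold. Without mural replicate 3, Daam2 and Mfge8 were still called higher by limma, and Nkain4 (adjusted p = 0.069) was not. Ndrg2 then passed the adjusted p (0.026) and not the 2-fold limit. Mertk, a receptor for phagocytosis that microglia also carry, was lower (ratio 0.275, adjusted p = 0.00039). Gfap, the intermediate filament of astrocytes, followed Aqp4, with 44.6, 69.1 and 52.1 FPKM in fragments and 15.2, 13.8 and 52.4 FPKM in mural (adjusted p = 0.11, and 0.0022 without mural replicate 3). Gja1, connexin 43, measured 81.4, 116 and 87.3 FPKM in fragments and 93.9, 70.7 and 138 FPKM in mural. Gjb6, connexin 30, was low and uneven, at 0.611, 0.991 and 9.15 FPKM in fragments and 2.43 and 1.41 FPKM in mural replicates 1 and 2, and was listed at 0 in mural replicate 3. Of the list, 32 of the 39 were highest in mural replicate 3, against 31.8% of all genes, with a median ratio of 2.16, and Gjb6 was not among them. Without mural replicate 3, 3 were called higher and 4 lower, against 6.24% and 10.5% of all genes.

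The complex that anchors the endfoot to the basement membrane did not follow mural replicate 3 as a list. Of 14 genes, 4 were called higher in mural and none lower (Dag1, Dmd, Sntb1 and Lama2), genes that muscle and mural cells also use. The genes with the highest mean FPKM over all 6 samples were Agrn, agrin (ratio 1.95), and Dmd, dystrophin (ratio 7.36). The median ratio of mural replicate 3 to the other 2 was 0.96. Dtna, alpha dystrobrevin, was picked after its values were seen, and measured 3.93, 5.48 and 18.8 FPKM in mural replicates 1, 2 and 3.

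Markers of the other cells that a sort or a vessel preparation could hold were summed beside the members. The summed FPKM of mural replicate 3 over the mean of the other 2 was 1.81 for the members, 1.27 for the other astrocyte genes, 0.87 for mural markers, 0.85 for endothelial markers, 0.93 for neuronal markers, 1.03 for microglia markers and 1.04 for fibroblast markers. The sums of radial glia, ependymal and erythroid markers gave 1.07, 0.90 and 0.95. Rarres2 made up most of the ependymal sum in the mural samples. Oligodendrocyte progenitor markers gave 0.96 as a sum, which Cspg4 dominates, and a median ratio per gene of 1.88, with 5 of 7 genes highest in mural replicate 3. Oligodendrocyte markers gave 1.32. Markers of neurons summed to 28.6 to 46.4 FPKM in mural, and of endothelium, led by Cldn5 and Pecam1, to 1631 to 2110 FPKM in mural against 2162 to 2518 FPKM in fragments. The part of any of these cells in the high values of mural replicate 3 was not tested. Mural replicate 2 was the lowest mural sample in 20 of the 35 members, against 32.5% of all genes tested.

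**Figure D4:**
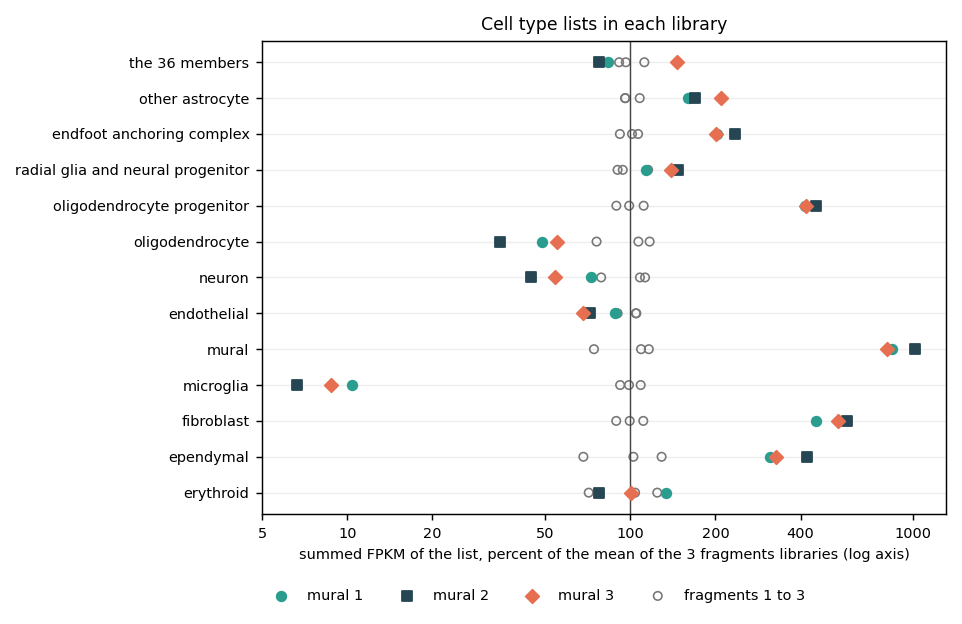
Summed FPKM of the members and of each marker list in each sample, relative to the mean of the 3 fragments samples, on a log axis. The members reach 146% in mural replicate 3 and 83.4% and 77.8% in mural replicates 1 and 2, and the microglia list lies at 6.62 to 10.4% in all 3 mural samples.

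By list, the calls were 1 higher of 11 radial glia and progenitor genes (Egfr), 1 higher of 7 oligodendrocyte progenitor genes (Cspg4) and 4 lower of 7 oligodendrocyte genes (Mbp, Mag, Mobp and Mal). None of 8 neuronal genes was called either way by limma, with 3 at an unadjusted p under 0.05. Of these only Stmn2 passed the adjusted p (0.028), at a ratio of 0.511. The median log2 fold change of the 8 was -0.72, and 0 of them lay above 0. Of 12 endothelial genes 2 were called lower (Slco1a4 and Ly6c1), and 6 passed the adjusted p in that direction at any ratio. Of 12 mural genes 12 were higher and of 8 microglia genes 8 were lower. Of 7 fibroblast genes 4 were higher (Col1a1, Col1a2, Lum and Dcn). Of 3 ependymal genes tested 1 was higher, Rarres2, and 1 lower, Dynlrb2. Rarres2 is among the genes that the authors list as enriched in brain mural cells. Ccdc153 and Tmem212, too low to be tested, were listed at 0 in all mural samples. None of 3 erythroid genes was called by limma, and 0 had an unadjusted p under 0.05. The genes with the highest mean FPKM over the 6 samples, called or not, were Vim and Nes for radial glia, Cspg4 and Pdgfra for oligodendrocyte progenitors, Cnp and Mbp for oligodendrocytes, Stmn2 and Tubb3 for neurons, Rgs5 and Vtn for mural cells, Csf1r and Cx3cr1 for microglia, Col1a2 and Col1a1 for fibroblasts, Rarres2 and Dynlrb2 for ependymal cells, and Hba-a1 and Hbb-b1 for red cells.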

How the data were processed

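RNA was measured by stranded total RNA-seq after depletion of rRNA, in 3 mural and 3 fragments samples. Per the submitters' processing notes and the methods, the authors used TopHat2 2.0.4 for alignment of read pairs (build NCBIM37), Picard 1.92 for the removal of duplicates and Cufflinks 2.2.1 for FPKM, without pooling replicates. The deposited values are FPKM, 1 per gene and sample. The scaling between samples and the strand setting of the counting are not given in the sources used here, so reads of genes that overlap on opposite strands cannot be told apart (Ttyh1, Slc1a2, Slc7a10, Aldh1l1, Glul, Dio2, Prodh, Plcd4, Grin2c, Nfia, Hes5, Sparcl1, Htra1 and S100b among the members).

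Of 9 identifiers listed more than once 1 line was kept. Symbols came from a GENCODE annotation on the same build (33116 of 33460 genes). Genes reaching an FPKM of 1 in 3 or more samples were fitted as log2(FPKM + 1) with limma 3.58.1 (R 4.3.3, intensity trend, Benjamini-Hochberg over 14801 genes), without a pairing term. The fold change of the fit understates the change of low genes. The fit was tested on simulated data. Fragments were recovered from genes with 1 transcript, where 98.2 to 99.3% of low values were whole within 0.1 fragment. The scale was chosen to make this share highest. Tables and figures were made in Python 3.11.15 with pandas 2.3.3, NumPy 2.4.6 and matplotlib 3.10.9. The promoter windows are of another build (GRCm38.p6) and were matched by symbol only.

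The members and lists were chosen with earlier results of these data known. All 36 members are named, with called genes of the other astrocyte list (1 is not reported here), Gfap, Gja1, Gjb6 and the leading genes of the other lists. The listed symbols Sox1, Lhfpl3 and Pifo were not matched. Alternatives were the pseudocount, the scaling, the filter, the trend, the adjusted p, the replicate number as a block and leaving out each sample.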

Additional observations from a re-analysis of the deposited data

How the results depend on the processing

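The calls of Atp1b2 and Apoe held under all alternatives run, with adjusted p of 0.00018 to 0.0038 and 0.0015 to 0.039. Leaving out each sample in turn gave 1 member higher each time and 1 to 4 lower, the 4 being without mural replicate 3. Over all genes it gave 711 to 1002 higher and 988 to 1751 lower, and in the other astrocyte list 3 to 7 higher (3 without mural replicate 3 and without fragments replicate 1) and 1 to 4 lower. Over all genes, 952 were higher and 1493 lower, and a filter at an FPKM of 5 left 948 lower and an adjusted p under 0.01 left 845, as fewer genes were tested or passed. Quantile normalization gave 1212 higher and 1080 lower. For members that were not called, the sign of the log2 fold change was often set by 1 sample. Its range when each sample was left out was -0.63 to 0.66 for Mlc1, -0.71 to 0.34 for Hepacam, -0.85 to 0.31 for Ttyh1, -0.73 to 0.55 for Slc1a2, -0.0579 to 0.84 for Slc1a3, -0.88 to 0.42 for Slc6a11, -0.65 to 0.30 for Slc4a4, -0.19 to 0.18 for Sfxn5, -0.27 to 1.10 for Aldh1l1, -0.32 to 0.47 for Aldoc, -0.26 to 0.51 for Acsbg1, -0.35 to 0.52 for Dio2, -0.97 to 0.95 for Plcd4, -0.30 to 1.01 for Fgfr3, -0.85 to 0.52 for Ntsr2, -0.35 to 0.17 for Sox9, -0.62 to 0.98 for Hes5, -0.0396 to 0.68 for Fabp7, -0.35 to 0.20 for Htra1, -0.94 to 0.25 for Dbi. Apart from that, Mlc1 turned to 0.0071 and Slc4a4 to 0.0056 under median-ratio scaling. Quantile normalization gave 0.0801 for Mlc1, 0.11 for Hepacam, 0.0105 for Slc4a4 and 0.0771 for Sox9, and a pseudocount of 0.1 gave -0.72 for Plcd4, -0.16 for Ntsr2 and -0.25 for Hes5. The cause of these turns was not tested.

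The replicate numbers of the 2 groups were checked for pairing. Deviations from the group mean correlated at 0.02 to 0.08 between samples of the same number and at -0.06 to 0.01 otherwise, so the numbers were not taken as pairs, although every sample correlated best with its own number, a hint from the data. With the replicate number as a block, 1 member was higher and 1 lower, and of all genes 900 and 1344. Depth limits genes of a few fragments in the mural samples, most in replicates 2 and 3, such as Mt3, S100b, Grin2c, Ntsr2, Plcd4 and Hes5.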
